A study of Mus musculus with 4 samples.

Results

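Immediate-early genes of the EGR, IER and Zfp36 families were compared between mouse mesangial cells treated with TGF-beta1, the profibrotic cytokine transforming growth factor beta 1, and such cells in low glucose. The 9 genes were Egr1, Egr2, Egr3, Ier2, Ier3, Ier5, Zfp36, Zfp36l1 and Zfp36l2. Every probe set whose platform annotation gave only the symbol of one of them was taken, which gave 16 of the 34945 probe sets with a single symbol. Mesangial cells are the contractile cells that support the capillary loops of the kidney glomerulus. RNA from them had been hybridised to 4 one-colour oligonucleotide arrays, of which 2 were low glucose arrays by their titles and the other 2 TGF-beta1 arrays. The sources used here give no dose, time of exposure, glucose concentration, passage or strain, and do not say whether the TGF-beta1 cells were also kept in low glucose. A difference in glucose and an effect of TGF-beta1 therefore cannot be told apart. The labels do not say whether the 2 arrays of a group stand for separate cultures, and the spread that p-values measure may therefore be technical. In RNA from bulk cells, fewer cells of a type and less RNA per cell cannot be told apart.

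Immediate-early genes are transcribed within minutes of a growth factor, cytokine or stress signal, without new protein synthesis, and most of their mRNAs decay quickly. Serum response factor (SRF) with its ETS cofactors, switched on by ERK, drives many of them through the CArG box of their promoters. EGR proteins are zinc finger transcription factors of GC-rich sites. Proteins of the Zfp36 family bind AU-rich elements in short-lived mRNAs and recruit the CCR4-NOT deadenylase. IER genes encode small inducible proteins with less well defined roles in growth and survival. In mesangial cells Egr1 is known as a gene induced by mitogens.

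The arrays fell into 2 pairs across the groups. Low glucose replicate 1 shared its repeat tag with TGF-beta1 replicate 2, and these are called array pair 1. Of the other 2 arrays, low glucose replicate 2 has a different tag and TGF-beta1 replicate 1 has none. They are called array pair 2, and spike-in signals put the 4 arrays in the same pairs. Across the 13565 genes tested, values correlated at r = 0.988 and 0.990 within the pairs and at 0.955 between the arrays of each group, where genes are not independent replicates. Array medians of the deposited linear intensities were 96.8 and 99.6 in pair 1 and 78.3 and 80.3 in pair 2. Of 7 mesangial markers 6 had a probe set, with mean levels from the 19.2nd percentile of all probe sets (Thy1) to the 63.9th (Des), and Pdgfrb stood at the 53.4th. The tubule markers Cdh16, Pax8, Lrp2, Epcam and Aqp1 were brighter, from the 72.8th to the 97.2nd percentile. The summed intensity of those 5 tubule markers was 5933 and 4875 on the low glucose arrays, against 3943 and 4271 on the TGF-beta1 arrays. That of 5 macrophage markers was 2151 and 1949 against 1652 and 1787, a lower sum carried by Csf1r (-0.38 on the log2 scale), while Cd14 was at -0.02, Adgre1 at 0.06, Ptprc at 0.10 and Cd68 at 0.14. Among the tubule markers Aqp1 (-0.67), Cdh16 (-0.31), Lrp2 (-0.29) and Pax8 (-0.14) were lower and Epcam (0.06) was not. The tubule and macrophage sums were therefore lower on the TGF-beta1 arrays. The mesangial sum was 536 and 462 against 542 and 579, with Acta2 at 0.32 and the others from -0.10 (Des) to 0.13 (Gata3). Podocyte sums (738 and 580 against 545 and 778) and endothelial sums (358 and 290 against 271 and 373) overlapped. Podocyte markers ran from -0.58 (Synpo) to 0.23 (Podxl). The part of these marker differences in the results below was not tested. Ratios of 3' to 5' probe sets lay at 0.948 or above for Gapdh and between 1.18 and 1.51 for Actb, with the groups overlapping in both.

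For 5 of the 9 genes (Egr2, Ier3, Ier5, Zfp36 and Zfp36l1) the RefSeq promoter table held a window, in build GRCm38.p6. The 250 bases before each start were searched on both strands. Zfp36 and Egr2 held a CArG box, the SRF site of immediate-early promoters, as did 1.62% of the 27025 genes with a window. The stretches that carry these matches are shown because the SRF route to immediate-early transcription is defined by them, with the matches in capitals and each written 5′ to 3′ on the gene's strand. The Zfp36 stretch, the 120 bases before the start on the minus strand at chr7:28379229-28379348, also holds the EGR site GCGNGGGCG, found in 5.33% of genes. The first Egr2 stretch lies on the plus strand at chr10:67537484-67537513 and the second at chr10:67537787-67537816, each before a different annotated start.
Zfp36: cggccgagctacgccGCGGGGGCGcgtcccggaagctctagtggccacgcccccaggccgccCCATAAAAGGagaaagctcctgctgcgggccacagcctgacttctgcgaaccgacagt
Egr2, first: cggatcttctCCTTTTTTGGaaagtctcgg
Egr2, second: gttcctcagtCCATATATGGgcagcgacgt
The CArG box of Zfp36 ended 49 bases before the start, and the EGR site did not overlap it. Zfp36l1 held TGATTCA, a match to the AP-1 pattern TGANTCA as searched, which leaves the middle base open (7.82% of genes). None of the 5 held the cAMP response element TGACGTCA (1.77%) or the SMAD palindrome GTCTAGAC (0.2%). A match is a description of these letters and not a shown binding site.

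Most of these genes had higher signal on the TGF-beta1 arrays, and among the 8 that were tested the IER genes differed most. Ier2, Ier3 and Ier5 differed by 0.79, 0.75 and 0.70 on the log2 scale, Zfp36l2 by 0.54, Zfp36 by 0.37, Egr1 by 0.31, Zfp36l1 by 0.29 and Egr3 by 0.06. These differences are TGF-beta1 minus low glucose after a pseudocount of 46.88 and quantile normalisation, for the brightest probe set of each gene, and the pseudocount shrinks them for dim signals. The median over the 8 genes was 0.45 (0.49 in array pair 1 and 0.42 in array pair 2), against -0.0001 over all 13565 genes tested. A log2 difference of at least 0.5 upwards was reached by 4 of the 8 (Ier2, Ier3, Ier5 and Zfp36l2) and by 1.19% of all genes. Egr2 is the gene not among the 8, because both of its probe sets fell below the filter on dim signals.

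The planned limma fit, which ignores the pairs, called 0 of the 8 at an adjusted p under 0.05 and 0 of the 13565 (0%). At an unadjusted p under 0.05 that fit gave 4 of the 8 genes, all higher in TGF-beta1 (Ier2, Ier3, Ier5 and Zfp36l2), beside 1.28% of all genes higher and 0.722% lower. With the array pair as a block, limma called 7 of the 8 higher, all but Egr3, and 0 lower, against 7.89% of all genes called higher and 10.6% lower. In the text that follows, called means an adjusted p under 0.05 in this blocked fit, and ± is its standard error with n = 2 arrays per group. The EGR, IER and Zfp36 genes and the pairs used as the block were chosen with earlier results of these data known. Their counts beside the shares of all genes are therefore a description. The block leaves each difference as it was and changes only the error. It leaves 1 residual degree of freedom, and in that fit limma estimated infinite prior degrees of freedom. The error of a gene is therefore that of genes of its brightness, and its own spread was not used. The very small p-values of the blocked fit rest on this prior. Under the prior of the unblocked fit (2.79 degrees of freedom) no gene was called. The adjusted limma p-values of the 8 then ran from 0.101 (Ier2) to 0.75 (Egr3). Both TGF-beta1 arrays lay above both low glucose arrays for 6 of the 8 genes, beside 9.83% of all genes, and below them for 0, beside 11.1%.

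**Figure D1:**
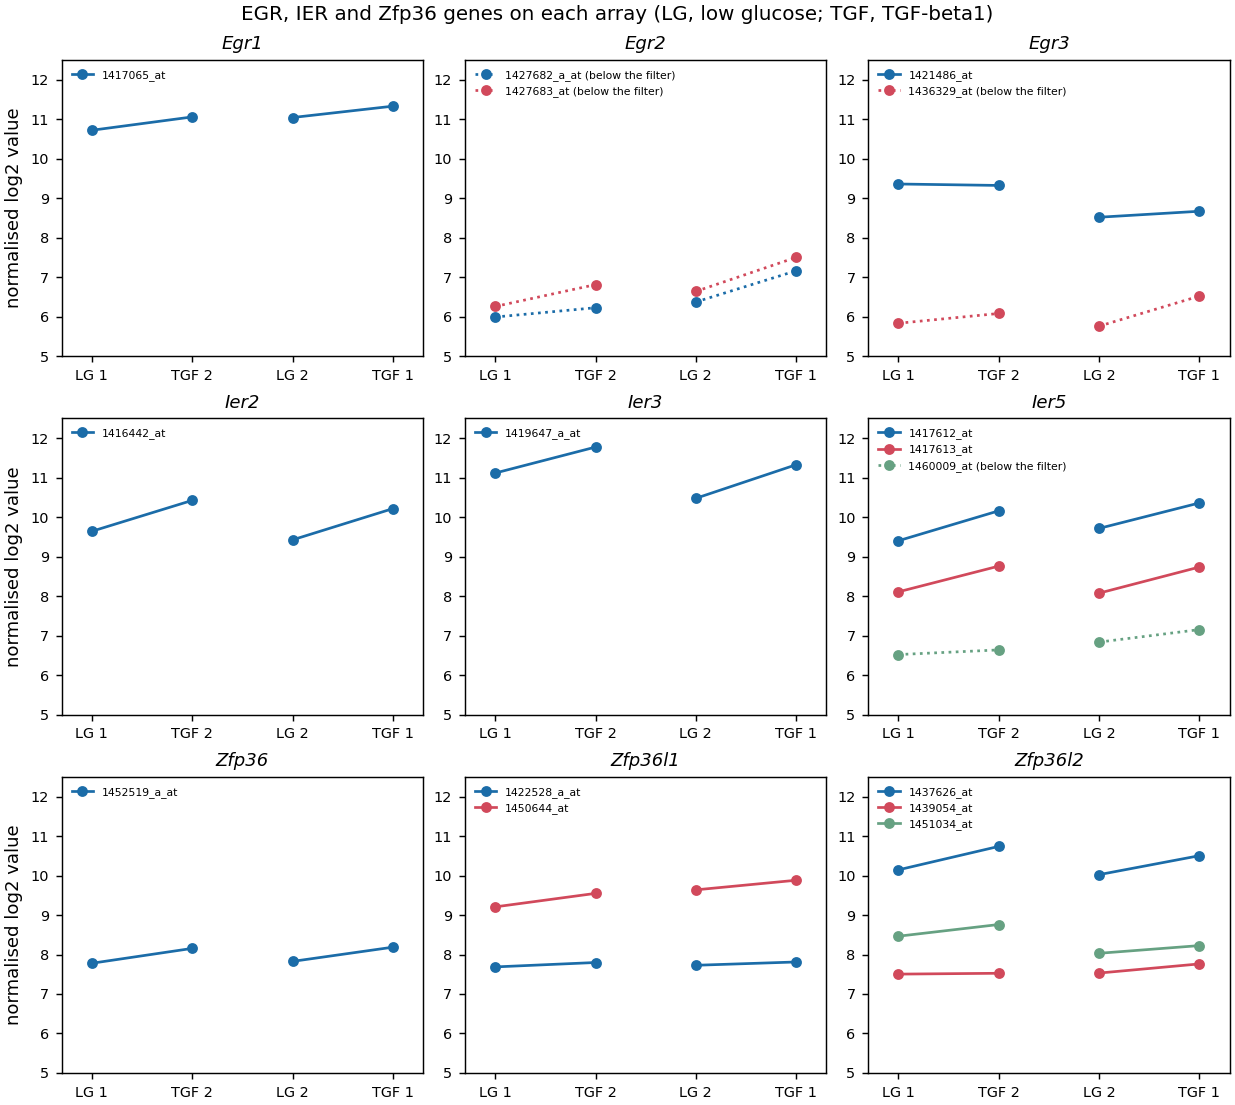
Normalised log2 value (y axis) of each probe set on the 4 arrays (x axis), a panel per gene; lines join the arrays of a pair, low glucose (LG) to TGF-beta1 (TGF), and dotted lines mark probe sets below the filter. Ier2, Ier3 and Ier5 climb in both pairs by 0.65 to 0.85 on their brightest probe sets, while the bright probe set of Egr3 is flat within pairs and 0.84 lower in low glucose replicate 2 than in low glucose replicate 1.

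Ier2, which encodes a nuclear protein induced by growth factors, was measured by 1 probe set (1416442_at). Its deposited intensity was 769 and 628 for low glucose (replicates 1 and 2, the order used throughout), against 1131 and 1347 for TGF-beta1. Both TGF-beta1 arrays were well above both low glucose arrays, and each was the higher array of its pair. The log2 difference was 0.79 ± 0.08 (1.73-fold), with 0.78 and 0.79 in array pairs 1 and 2, the largest among the 8 genes and the one on which the pairs differed least (blocked adjusted p = 1.8e-19 with limma). Its unadjusted p without the block was 0.00564. Leaving out any 1 array kept the difference between 0.68 and 0.90.

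Ier3 encodes a stress-inducible protein that modulates apoptosis and ERK signalling. Its intensities were 2221 and 1352 in low glucose, against 2462 and 3562. The groups did not overlap, but the higher low glucose array (2221) came close to the lower TGF-beta1 array (2462), and those arrays belong to different pairs. Within pairs the ratio of intensities was 1.60 and 1.82. The log2 difference was 0.75 ± 0.07 (0.66 and 0.85 in the pairs; blocked adjusted p = 3.3e-25 with limma). Without low glucose replicate 2 it was 0.43. Without low glucose replicate 1 it was 1.07, and Ier3 was then 1 of 9 genes called by limma with no block, in a fit where low glucose had 1 array, assumed to vary like the 2 TGF-beta1 arrays.

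Ier5, a nuclear protein that regulates heat shock factor and cell cycle genes, had 3 probe sets. On the brightest (1417612_at) the intensities were 638 and 784 in low glucose, against 1257 and 1114. A second (1417613_at) read 239 and 213 against 374 and 390. Both showed low glucose arrays close together and TGF-beta1 arrays clear of them. Their log2 differences were 0.70 ± 0.08 and 0.66 ± 0.07, with 0.65 to 0.76 in the pairs of either, and both were called (blocked limma, adjusted p = 1.6e-15 in the fit of genes for the first and 1.6e-17 in the fit of probe sets for the second). The third (1460009_at) lay below the filter, at 48.2 and 60.1 against 86.8 and 58.5, and its groups overlapped. Its log2 difference was 0.22, with no test.

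Egr1, the founding EGR factor, had 1 probe set (1417065_at). Its intensity was 1689 and 2003 in low glucose, against 2467 and 2150. Each TGF-beta1 array exceeded its partner by a ratio of 1.27 or 1.23, and the lower TGF-beta1 array was only a little above the higher low glucose array. The log2 difference was 0.31 ± 0.07 (0.34 and 0.29 in the pairs; 1.24-fold; blocked adjusted p = 0.000202 with limma). Array pair 2 was brighter than pair 1 by 0.32 in low glucose and 0.27 in TGF-beta1, about the size of the difference between groups. The difference was 0.15 without low glucose replicate 1 and 0.47 without its replicate 2. Leaving out TGF-beta1 replicate 1 gave 0.18.

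Egr3, a related EGR factor, was the 1 tested gene of the 8 that was not called. Its bright probe set (1421486_at) read 617 and 314 in low glucose, against 355 and 601, so the high arrays were those of pair 1 in both groups. The log2 difference between groups was 0.06 ± 0.08 (-0.04 and 0.15 in the pairs) and was not called (blocked adjusted p = 0.68 with limma), which does not show that Egr3 was unchanged. Between the pairs the values differed by -0.84 in low glucose and -0.65 in TGF-beta1 (pair 2 minus pair 1). With 1 array left out the difference ran from -0.36 (without low glucose replicate 2) to 0.48 (without low glucose replicate 1), and leaving out TGF-beta1 replicate 1 or 2 gave 0.38 or -0.27. The second probe set (1436329_at) was dim, at the 4.35th percentile, and read 10.2 and 7.59 against 41.6 and 22.8. All 4 of those values lie under the pseudocount, and its log2 difference of 0.50 was not tested.

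Egr2, which encodes Krox-20, was dim on both probe sets. The first (1427683_at) read 31.7 and 47.7 in low glucose, against 124 and 73.1, without overlap. The other (1427682_a_at) read 17.6 and 33.1 against 87.7 and 30.7, where the lower TGF-beta1 array fell among the low glucose arrays. Both were higher within both pairs, with log2 differences of 0.71 (0.55 and 0.86) and 0.51 (0.24 and 0.79). Their mean levels stood at the 37.6th and 18.6th percentiles of all probe sets, below the filter at the 40th. With no filter Egr2 entered the unblocked limma fit at 0.71, with an unadjusted p under 0.05, and that fit called 0 of 18193 genes.

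Zfp36 encodes tristetraprolin, the founding AU-rich element binding protein of its family. Its single probe set (1452519_a_at) read 185 and 168 in low glucose, against 236 and 247. The arrays of each group lay close together and the groups were apart. The log2 difference was 0.37 ± 0.06 (0.38 and 0.36 in the pairs; 1.29-fold; blocked adjusted p = 4.2e-07 with limma). Values of the 2 pairs differed by only 0.05 in low glucose and 0.03 in TGF-beta1. Leaving out any 1 array kept the difference between 0.34 and 0.39.

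Zfp36l1 and Zfp36l2 encode the other tristetraprolin-like proteins, and their probe sets disagreed in size. For Zfp36l2 the brightest (1437626_at) read 1103 and 975 in low glucose, against 1384 and 1708, with no overlap and a log2 difference of 0.54 ± 0.08 (0.59 and 0.48 in the pairs; blocked adjusted p = 8.1e-10 with limma). The second (1451034_at) read 315 and 204 against 245 and 390, so the groups overlapped, and differed by 0.25 ± 0.07, which was called (adjusted p = 0.0066, limma with the block). The third (1439054_at) read 147 and 125 against 159 and 151 and differed by 0.13 ± 0.06, which was not called (blocked limma, adjusted p = 0.177), and its groups overlapped once normalised. All 3 were higher in TGF-beta1 within both pairs.

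For Zfp36l1 the brighter probe set (1450644_at) read 549 and 740 in low glucose, against 880 and 712. The higher low glucose array exceeded the lower TGF-beta1 array, which belonged to the other pair. The log2 difference was 0.29 ± 0.08 (0.34 and 0.24 in the pairs; blocked adjusted p = 0.00398 with limma). Leaving out low glucose replicate 1 or 2 gave 0.08 or 0.51, and leaving out TGF-beta1 replicate 1 or 2 gave 0.13 or 0.46. The other probe set (1422528_a_at) read 172 and 152 against 167 and 188 and differed by 0.10 ± 0.06 without being called (blocked limma, adjusted p = 0.335). Its deposited values overlapped between the groups and its normalised ones did not.

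**Figure D2:**
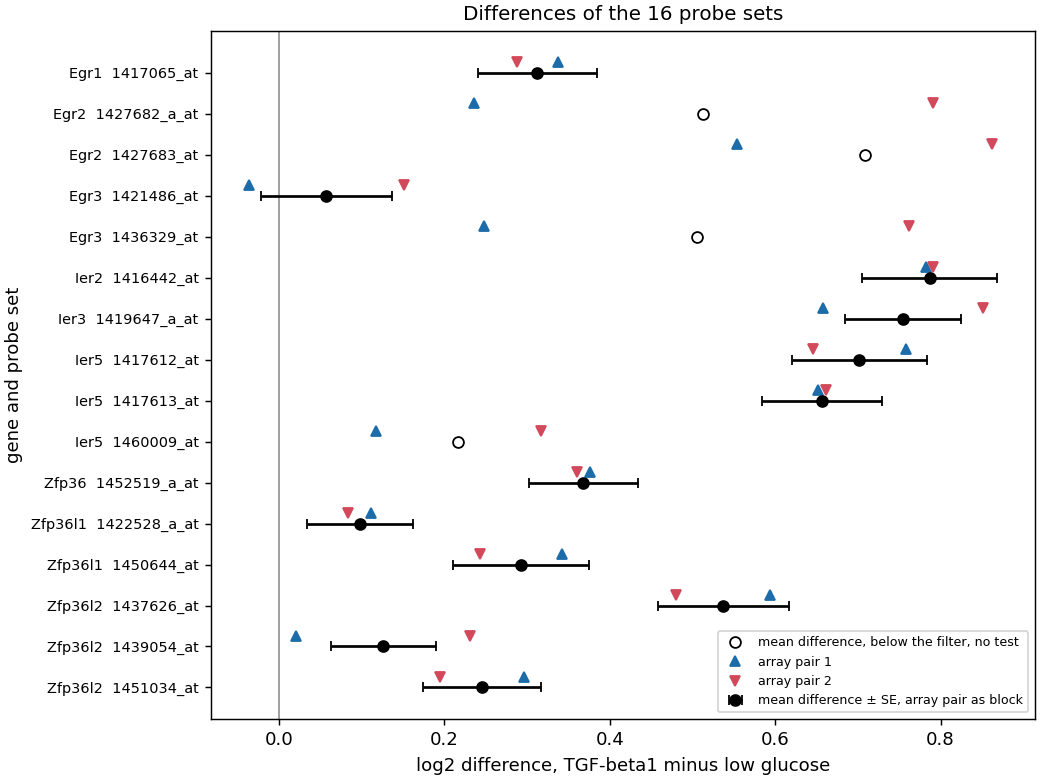
Log2 difference, TGF-beta1 minus low glucose (x axis), of the 16 probe sets (y axis), as the mean ± SE from limma with array pairs blocked (filled), the mean alone for the 4 probe sets below the filter (open), and the value in each array pair (triangles). All 16 means lie above 0, and array pair 1 of Egr3 on 1421486_at, at -0.04, is the only value within a pair below 0.

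Counted by probe set, 12 of the 16 passed the filter. Limma called 0 of the 12 without the block (0% of the 27022 probe sets tested) and 9 with it, all higher, against 6.94% of all probe sets called higher and 8.91% lower. Both TGF-beta1 arrays were above both low glucose arrays in normalised value for 8 of the 12, beside 9.53% of all. The 3 that were not called were the bright one of Egr3 and the dimmer ones of Zfp36l1 and Zfp36l2. With quantile normalisation, the authors' scaling or median centring, the mean difference of each of the 16 was above 0.

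**Figure D3:**
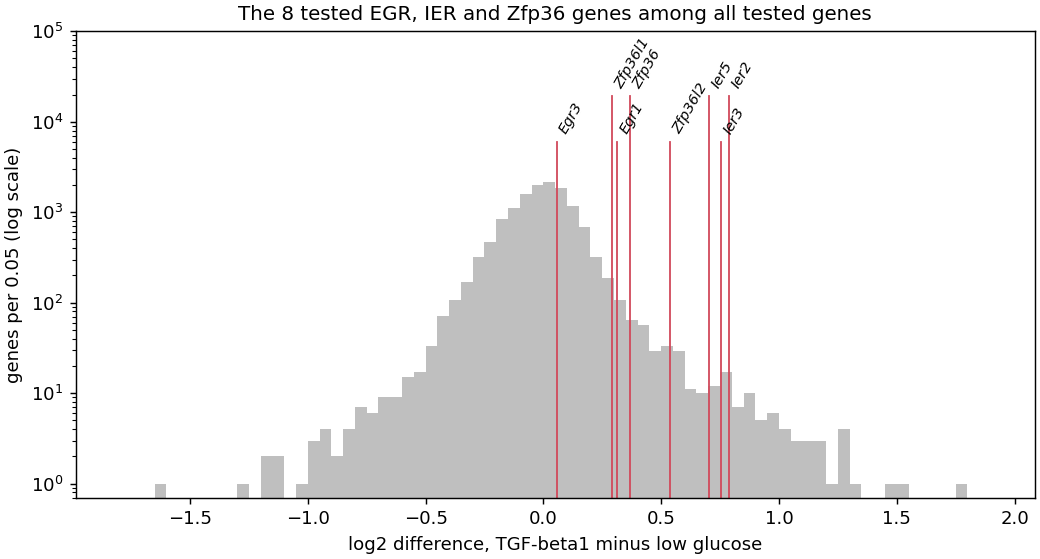
Number of genes (y axis, log scale) by log2 difference, TGF-beta1 minus low glucose (x axis), over the 13565 genes tested, with a line at each of the 8 tested EGR, IER and Zfp36 genes. Egr3 at 0.06 lies in the bulk, Egr1, Zfp36 and Zfp36l1 lie between 0.29 and 0.37, and Ier2, Ier3 and Ier5 at 0.70 to 0.79 lie in the sparse upper tail.

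The profile of Ier2, the gene with the largest difference, was set against tested genes outside the EGR, IER and Zfp36 genes. The measure was the Euclidean distance between their 4 centred log2 values. Nearest was Hk2 (distance 0.10), hexokinase of the first step of glycolysis, with a log2 difference of 0.79. Slc4a11 (0.13), a membrane transporter, differed by 0.86. Maff (0.13), a small MAF transcription factor, differed by 0.84. Rcan1 (0.14), a calcineurin inhibitor, differed by 0.68 and Csrnp1 (0.14), a nuclear protein of the immediate-early class, by 0.66. With 4 arrays such likeness is a description of this pattern alone.

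Most genes on a list of 45 other immediate-early genes were higher in TGF-beta1 too. All 45 were tested, several of which were known to be high in these data when the list was written. With the block 41 were called higher, 0 lower and 4 did not pass, beside 7.89% of all genes called higher and 10.6% lower. Without it limma called 0, with 27 at an unadjusted p under 0.05, beside 1.28% of all genes higher and 0.722% lower. Both TGF-beta1 arrays lay above both low glucose arrays for 36 of the 45, beside 9.83% of all genes. Their median log2 difference was 0.66 (0.66 and 0.63 in the pairs). Atf3, a transcription factor of the stress response, differed by 1.34 ± 0.08. Fosl1, an AP-1 subunit, differed by 1.26 ± 0.08 (1.16 on another probe set). Dusp2 and Dusp5, phosphatases that switch off MAP kinases, differed by 1.24 ± 0.07 and 1.10 ± 0.07. Ccn2, connective tissue growth factor, differed by 0.98 ± 0.07, and Sgk1, a serum-induced kinase, by 0.97 ± 0.07. The 4 that did not pass were Nr4a3, an orphan nuclear receptor (0.05), Klf2 (0.10), Gadd45b (0.06) and Arc (0.12), which were named after their values were seen.

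**Figure D4:**
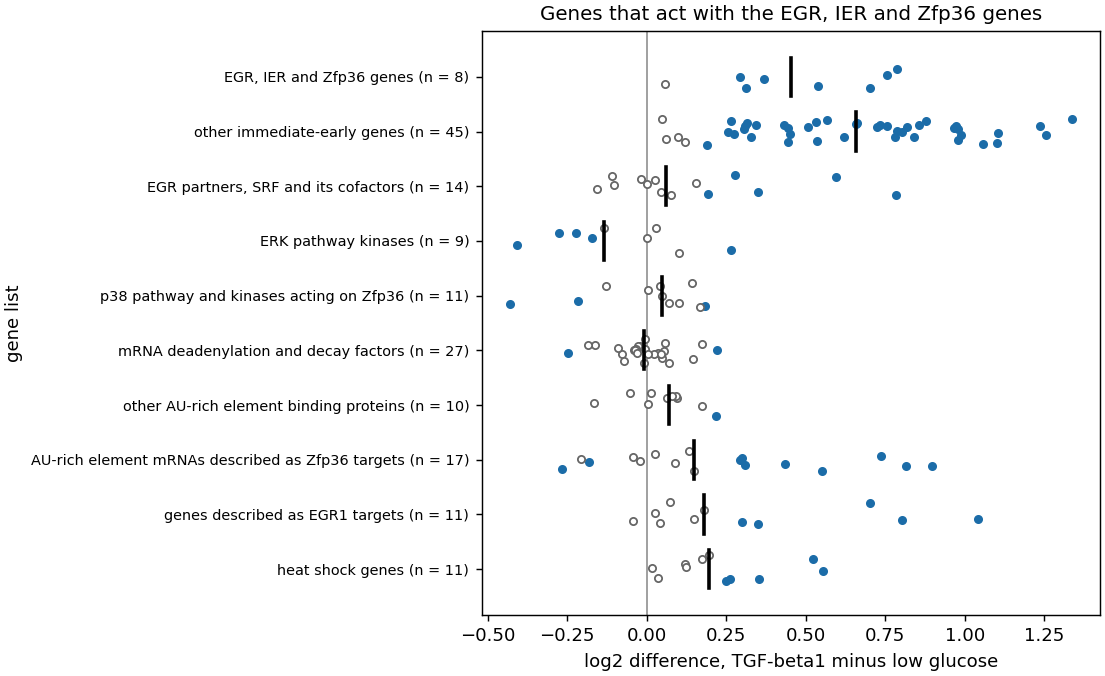
Log2 difference, TGF-beta1 minus low glucose (x axis), of each tested gene by list (y axis), filled where called by limma with the array pair as a block; black bars are list medians. The bar of the other immediate-early genes stands at 0.66 and that of the EGR, IER and Zfp36 genes at 0.45, while mRNA decay factors lie around -0.01.

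Among the partners of EGR proteins and of SRF, 5 of 14 tested genes were called higher and 0 lower, with a median of 0.06. Of all genes 7.89% were called higher and 10.6% lower. Nab2, a co-repressor bound by EGR proteins and induced by them, differed by 0.35 ± 0.08, and its relative Nab1 was at -0.11 without a call. Elk3, an ETS cofactor of SRF, differed by 0.78 ± 0.08 (0.26 on another probe set). Fhl2, a LIM protein that binds SRF, differed by 0.59 ± 0.08. Crem, a cAMP-responsive factor, differed by 0.28 ± 0.07, with 0.01 and 0.13 on other probe sets, and its groups overlapped. Leaving out low glucose replicate 1 or 2 put Crem at 0.04 or 0.52, and leaving out TGF-beta1 replicate 1 or 2 put it at -0.02 or 0.58. Creb1, at 0.19, was the remaining call. Srf itself, at 0.16, and its ETS cofactors Elk1 (0.08) and Elk4 (0.03) were not called.

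Of genes described as EGR1 targets 5 of 11 tested were called higher and 0 lower, with a median of 0.18. The shares of all genes were 7.89% called higher and 10.6% lower. Pdgfb, a mesangial cell mitogen, differed by 1.04 ± 0.08 (0.84 on another probe set). Fn1, fibronectin, differed by 0.80 ± 0.07, and by 0.52 without low glucose replicate 2. F3, tissue factor, differed by 0.70 ± 0.08. Vegfa, an endothelial growth factor, differed by 0.30 ± 0.07, and by 0.15 without low glucose replicate 1. Nab2, already described, was the fifth, and Tgfb1, at 0.04, was not called.

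The kinases upstream gave calls in both directions, beside 7.89% of all genes called higher and 10.6% called lower. Of 9 ERK pathway genes tested, 1 was called higher and 4 lower, with a median of -0.13. Other genes of that list were not analysed here. Nras, a RAS GTPase, differed by 0.26 ± 0.08 (0.10 and 0.18 on other probe sets). Mknk2, a kinase activated by ERK, differed by -0.41 ± 0.07 (-0.28 on another probe set) and Rps6ka3, an ERK-activated ribosomal S6 kinase, by -0.28 ± 0.07 (0.11 on another probe set). Rps6ka5 differed by -0.22 ± 0.08, which became -0.58 or 0.13 when low glucose replicate 1 or 2 was left out and -0.46 or 0.02 when TGF-beta1 replicate 1 or 2 was, and Braf, at -0.17, was the fourth lower call. In the p38 pathway, whose kinase MAPKAPK2 phosphorylates tristetraprolin, 1 of 11 was called higher and 2 lower, with a median of 0.05. These few p38 calls lie near the shares of all genes. Map2k6, an activator of p38, differed by -0.43 ± 0.07 (-0.28 without low glucose replicate 2) and Mapk14, p38 alpha itself, by -0.22 ± 0.08 (-0.23 to 0.07 on other probe sets). Mapk13, p38 delta, differed by 0.18 ± 0.07, which became 0.31 or 0.05 when low glucose replicate 1 or 2 was left out and 0.41 or -0.05 when TGF-beta1 replicate 1 or 2 was. Map2k3, at 0.17 ± 0.08 and from -0.11 to 0.44 with 1 array left out, and Mapkapk2, at 0.05, were not called.

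The machinery that Zfp36 proteins work with was near 0. Of 27 deadenylation and decay factors tested, 1 was called higher, 1 lower and 25 neither, with a median of -0.01. Tob2, an adaptor of the CCR4-NOT deadenylase, differed by 0.22 ± 0.08 (0.33 or 0.11 with TGF-beta1 replicate 1 or 2 left out). On 4 other probe sets Tob2 ran from 0.04 to 0.14. Dcp2, the decapping enzyme, differed by -0.25 ± 0.07, with 0.13 on another probe set. The CCR4-NOT subunits Cnot6 (-0.19 ± 0.08, with -0.31 to -0.26 on 3 other probe sets) and Cnot3 (-0.16 ± 0.07, with 0.07 on another) were not called. With 1 array left out Cnot3 ran from -0.49 to 0.16. Among 10 other AU-rich element binding proteins 1 was called higher and 0 lower, with a median of 0.07. Of all genes 7.89% were called higher and 10.6% lower. That one was Elavl2, at 0.22 ± 0.07 (0.07 on another probe set). Elavl1, the stabilising protein HuR, at 0.17 ± 0.08, Tia1 at -0.17 ± 0.08 (-0.13 to 0.12 on other probe sets) and Rc3h1 at 0.09 ± 0.06 were not called. With 1 array left out they ran from 0.11 to 0.23, from -0.25 to -0.08 and from -0.04 to 0.22.

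Messengers with AU-rich elements that are described as Zfp36 targets were more often higher than lower, with 8 of 17 tested called higher, 2 lower and a median of 0.15. Ptgs2, the inducible cyclooxygenase, differed by 0.90 ± 0.07 and Lif, an IL-6 family cytokine, by 0.82 ± 0.06 (0.08 on another probe set). Cdkn1a, the cyclin-dependent kinase inhibitor p21, differed by 0.74 ± 0.08 (0.65 on another probe set). Plaur, the urokinase receptor, differed by 0.55 ± 0.07, and by 0.28 when replicate 2 of either group was left out. Vegfa is on this list as well. The 2 lower calls were Notch1 (-0.27) and Il1b (-0.18), named after their values were seen. For Il1b the groups overlapped, and the difference was -0.43 in array pair 1 but 0.07 in array pair 2. Without the block limma called 0 genes of each list, and at an unadjusted p under 0.05 gave 2 EGR or SRF partners, 3 EGR1 targets, 3 AU-rich messengers, 1 ERK pathway gene, 1 heat shock gene and 0 of the others outside the immediate-early list. Counts of these lists can be read against the 7.89% and 10.6% of all genes called higher and lower with the block.

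Of 11 heat shock genes, which also respond to handling of cells, 5 were called higher, 0 lower and 6 neither, with a median of 0.20. The shares of all genes were again 7.89% called higher and 10.6% lower. Hspb1, a small heat shock protein, differed by 0.52 ± 0.05 (0.60 on another probe set). Hspa1b, an inducible HSP70, differed by 0.55 ± 0.08 (0.60 and 0.62 on other probe sets; 0.31 without low glucose replicate 1). Hspa1a, at 0.26 ± 0.07, has a near-identical coding sequence, so probe sets of the pair may not separate them. Hsph1, a co-chaperone, differed by 0.35 ± 0.08, and by 0.18 without low glucose replicate 1. The part of a stress response in the differences of the EGR, IER and Zfp36 genes was not tested.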

How the data were processed

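The authors deposited 1 linear intensity per probe set for 4 arrays of total RNA; the sources used here do not state the summarisation or the scaling. Groups came from the array titles. Gene names came from the platform annotation, after 64 control probe sets were left out: 34945 of 45037 had 1 symbol, 932 several and 9160 none, and 34741 had a gene identifier found in the RefSeq table, which changed 0 symbols. To the deposited intensities the 25th percentile of all values, 46.88, was added before log2, and the arrays were quantile normalised because their medians differed by 0.227. A probe set was kept where its mean log2 reached the 40th percentile (27022 were), and the brightest of each gene was tested (13565 genes). limma (lmFit, then eBayes with a trend on intensity; two-sided, with Benjamini-Hochberg adjustment over all genes or probe sets) was run without and with the array pair as a block. Array pair 1 comes from a repeat tag shared by 2 titles, whose meaning is not stated, and array pair 2 is the other 2 arrays; 18 spike-in probe sets differed by a mean of 0.0482 and 0.0775 (absolute log2) within pairs and by at least 0.937 otherwise. The fits were run on simulated arrays with the same error for every gene, to check that known changes were recovered. False calls were not checked there, so that run does not bear on the choice of prior. Promoter windows came from RefSeq (GRCm38.p6).

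The genes, lists and pairs were chosen with earlier results of these data known. All 9 genes were named. From each list the 4 genes of largest absolute moderated t with the block were named, with 2 more immediate-early genes. So were the 5 genes outside these 9 that lay nearest to the gene with the largest difference. Clone and model names were left out. Other list genes given with a value (Srf, Elk1, Elk4, Nab1, Creb1, Tgfb1, Braf, Mapkapk2 and those marked in the text) were named after their values were seen. Alternatives were other pseudocounts, a floor, other scalings and filters, other probe set choices, no trend, the block with the other prior, and each array left out. Versions were limma 3.58.1, R 4.3.3, matplotlib 3.10.9 and Python 3.11.15.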

Additional observations from a re-analysis of the deposited data

How the results depend on the processing

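The precision is limited by having 2 arrays per group, and by the signal of dim probe sets. The count of tested EGR, IER and Zfp36 genes called by limma was 0 in the fit without a block and 7 with the array pair as a block. The matching counts were 0 and 9 for their probe sets, 0 and 75 for the listed pathway genes and 0 and 2503 for all genes. With the block and the other prior each of these counts was 0 again. With 1 array left out the counts ran, in that order, from 0 to 1, 0 to 1, 0 to 4 and 0 to 9. Leaving out an array unbalances the array pairs between the groups, so part of the difference between pairs enters such values. The median difference of 0.45 was 0.54 with no filter, which adds Egr2, and 0.34 with the mean over all kept probe sets of a gene. It was between 0.45 and 0.51 with 1 array left out. Egr3 turned to -0.36 without low glucose replicate 2 and to -0.27 without TGF-beta1 replicate 2, and was 0.48 at most. Every other tested EGR, IER or Zfp36 gene stayed above 0 under all alternatives run. Apart from left-out arrays, the alternatives put Zfp36l2 at 0.30 to 0.56, Zfp36 at 0.32 to 0.45 and Zfp36l1 at 0.20 to 0.31.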
